A study of Rattus norvegicus with 18 samples.

Results

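Gene expression in the adrenal glands of stroke-prone spontaneously hypertensive rats (SHRSP) aged 3 weeks was set against that in spontaneously hypertensive rats (SHR) of the same age, across all genes measured. The comparison holds the 3 arrays labelled SHRSP and the 3 labelled SHR at 3 weeks, which are 6 of the 18 one-colour arrays of the series. The other arrays are 3 each of SHRSP and SHR at 6 weeks, and of the normotensive strain WKY at 3 and at 6 weeks. All rats were untreated, and the labels call the 3 samples of each group biological replicates without naming animals, sex or hour of collection. Strains that were bred apart differ at many loci, so the comparison is between strains and not between alleles of 1 gene.

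SHR is a strain bred from WKY stock for high blood pressure, and SHRSP was bred from SHR for death by stroke. The adrenal cortex makes aldosterone, which retains sodium, and corticosterone, the main glucocorticoid of rats, both from cholesterol. The chromaffin cells of the medulla make adrenaline and noradrenaline. These hormones raise blood pressure, which in both hypertensive strains climbs over the first months of life.

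The 6 markers of the cortex and the 6 of the medulla were well above background on each of the 6 arrays. Among them were Cyp11a1, which starts steroid synthesis, and Th, which starts catecholamine synthesis. Levels are given as log2 of the processed signal with the 75th percentile of the array at 0, so that a level of 1 is a signal at 2 times that percentile. A difference is log2 SHRSP minus SHR, with the standard error of a limma model of all 18 arrays and a Benjamini-Hochberg adjusted p over the 20868 genes tested. Each group had n = 3 arrays. A gene is said to have risen, fallen or been called where the adjusted p was under 0.05. Precision is limited by having 3 arrays a group.

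Some arrays stood apart, and the sign of the largest differences did not hold at 6 weeks. Replicate 2 of SHR at 3 weeks carried liver transcripts. The summed level of 16 liver markers, Serpinc1 left out, was 2.81, 3.46 and 2.82 on the SHRSP arrays, against 2.37, 7.19 and 3.15 on the SHR arrays. Replicate 3 of SHR was high for 17 markers of Schwann cells and nerve, which summed to 2.10, 2.21 and 2.14 in SHRSP, against 2.18, 2.42 and 3.60 in SHR. At 6 weeks, the groups labelled SHRSP and SHR lay the other way round for most of the largest differences. Such a pattern cannot be told apart here from an exchange of the SHRSP and SHR labels at 1 of the ages, and an exchange at 3 weeks would turn the directions below round. No array was given another label, and the directions are those of the labels at 3 weeks.

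Each gene was read by 1 oligonucleotide of 60 bases, its brightest. The first 30 bases of 7 of them are shown, since the largest differences and their change of sign rest on them. Positions are on the rn4 assembly, as the file gives them, with no base singled out, and the strand is that of the position.
Vegfb, chr1:209657830-209657889, minus strand: aagccttcagtttgatcttcaccaaatgga
Zfp597, chr10:11926184-11926243, plus strand: gagaaaactcataagtgcaaaacatgtgca
Lpar3, chr2:244509457-244509516, plus strand: agtacctggaggacagcatcagccagggcc
Serpinc1, chr13:76562664-76562723, plus strand: gcaccttttcctatctcggtgtttgttaat
Agtrap, chr5:165154364-165154423, minus strand: agaagacaagaagcccaagatgttttctcg
Uts2, chr5:168148638-168148697, plus strand: gaaaaatcgtgccaacaacgccccgttctc
Ephx2, chr15:45535737-45538220, minus strand: ggctttcgtgttctagctatagacatgaaa
The position of the Ephx2 probe spans more than its own length, so it crosses a splice junction. Whether the other probes lie in coding sequence or in a UTR is not given in the sources used here.

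In all, 1650 of 20868 genes were called between SHRSP and SHR at 3 weeks, or 7.91%. In SHRSP 985 rose (4.72%) and 665 fell (3.19%). A difference of at least 2-fold was called for 278 genes (1.33%), 137 higher and 141 lower. For 1637 of the 1650 called genes the SHRSP and SHR arrays did not overlap. The share over all genes tested was not counted, and a call itself favours such a gap, so the count is no support for the calls. Apart from genes added by name, the genes named below had to show no overlap, so it is no further support for them. The median difference over all genes was 0.09, and 4495 genes had an unadjusted p under 0.05. With quantile normalization the split was 733 higher and 742 lower, so the balance of rises and falls turned on the scaling. The count was 891 without replicate 2 of SHR, 958 without replicate 2 of SHRSP and 1046 without replicate 3 of SHRSP, and 1010 where the model held only the 6 arrays.

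The largest rise was in Vegfb, a VEGF family growth factor that acts through the receptor Flt1. Its level was 0.43, 0.60 and 0.52 on the SHRSP arrays, against -9.46, -10.01 and -9.35 on the SHR arrays. Every SHRSP array was bright and no SHR array was well above background. In this processing Vegfb was therefore at least 353-fold higher in SHRSP (adjusted p = 1.09e-13). The bound sets the SHRSP mean against the lowest signal that counted as above background on the SHR arrays. Where an array's own signal was higher, that was used. This and the bounds below hold for this processing only, since with background corrected by normexp Vegfb was 45.0-fold higher. At 6 weeks the level was -9.97, -9.67 and -9.19 in SHRSP, where no array was well above background, against 0.73, 0.67 and 0.64 in SHR. There Vegfb was at least 406-fold lower in SHRSP (adjusted p = 8.69e-14). WKY had 0.20, 0.34 and 0.34 at 3 weeks.

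**Figure D1:**
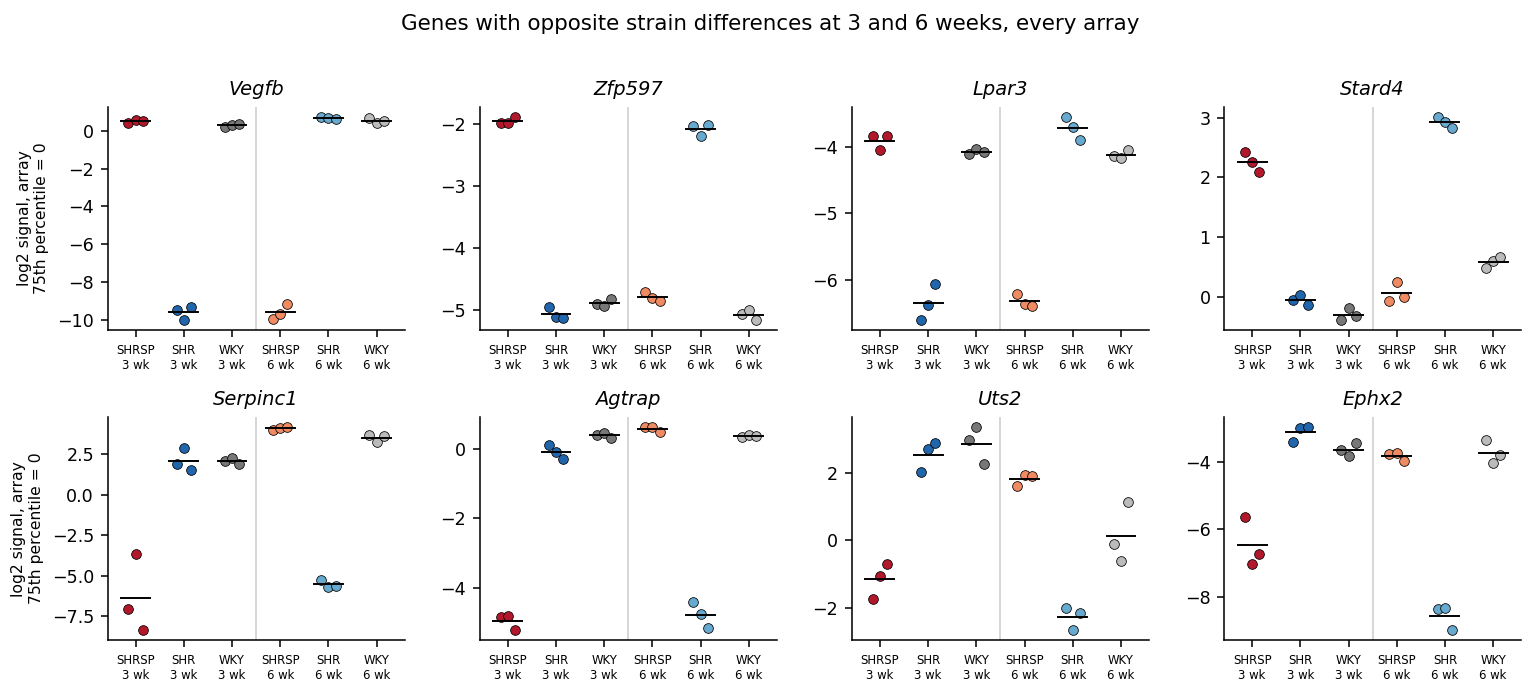
Levels of 8 genes on each of the 18 arrays, as log2 signal with the array's 75th percentile at 0; points are replicates 1 to 3 from left to right, bars are group means, and the grey line parts 3 from 6 weeks. In each panel the SHRSP and SHR arrays do not overlap at either age, which at 3 weeks was a condition for naming the genes. The strain that was high at 3 weeks was low at 6 weeks.

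Other large rises were in transcription factors, a lipid receptor and a carrier of cholesterol. Zfp597, a zinc finger protein, stood at -1.98, -1.99 and -1.89 in SHRSP, against -4.95, -5.11 and -5.13 in SHR, a difference of 3.12 ± 0.08 (adjusted p = 6.65e-12). Nfe2l3, a basic leucine zipper factor, stood at -3.003, -2.758 and -2.974 in SHRSP, against -5.73, -5.76 and -5.09 in SHR, which is 2.62 ± 0.21 (adjusted p = 5.57e-06). The groups did not overlap for either gene. Lpar3, a receptor for lysophosphatidic acid, was at -3.84, -4.06 and -3.84 in SHRSP, against -6.61, -6.38 and -6.07 in SHR, which is 2.44 ± 0.12 (adjusted p = 3.45e-08). A second, dimmer probe of Lpar3 differed by 0.11 ± 0.35 (adjusted p = 0.878), so the 2 probes gave unlike results, and at 6 weeks the second probe stood at 0.65, also above 0. Stard4, which carries cholesterol through the cytosol, was at 2.43, 2.25 and 2.09 in SHRSP, against -0.05, 0.03 and -0.14 in SHR, or 2.31 ± 0.11 (adjusted p = 1.29e-08). Its second probe gave 2.84 ± 0.14. Zfp296, another zinc finger protein, and Serhl2, a serine hydrolase-like protein, differed by 2.34 ± 0.16 and 2.62 ± 0.15.

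These 6 genes had the opposite sign at 6 weeks. The difference there was -2.71 ± 0.08 for Zfp597, -2.71 ± 0.21 for Nfe2l3, -2.60 ± 0.12 for Lpar3, -2.86 ± 0.11 for Stard4, -1.99 ± 0.16 for Zfp296 and -2.54 ± 0.15 for Serhl2. All were called at that age, with the largest adjusted p at 2.64e-06 for Zfp296. Haus4, a subunit of the augmin complex that builds the mitotic spindle, did the same, with 1.94 ± 0.15 at 3 weeks and -1.28 ± 0.15 at 6 weeks.

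Some large rises had no called difference at 6 weeks. Agt, which encodes angiotensinogen, the precursor of angiotensin, was at 1.65, 2.44 and 2.55 in SHRSP, against -0.38, 0.58 and -0.02 in SHR. The groups did not overlap, and Agt was 4.44-fold higher (adjusted p = 0.00284), while at 6 weeks the difference was -0.54 ± 0.38 (adjusted p = 0.378). Dnase1, a secreted nuclease, differed by 2.13 ± 0.31 at 3 weeks and was not called at 6 weeks (adjusted p = 0.24), when no SHR array was well above background. Eva1a, a membrane protein linked to autophagy, differed by 1.96 ± 0.19 at 3 weeks, also with its second probe at 1.89 ± 0.18, and by -0.16 ± 0.19 at 6 weeks (adjusted p = 0.594). Irf4, a transcription factor of lymphocytes, was at least 2.71-fold higher in SHRSP and Or8g36b, an olfactory receptor gene, at least 2.68-fold, with no SHR array well above background for either. Olfactory receptor genes are near copies of one another, so that probe could read more than 1. Abca9, a transporter, was likewise below background in SHR and at least 2.11-fold higher in SHRSP, but at 6 weeks it was called the other way, at least 2.22-fold lower.

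The largest fall was in Serpinc1, which encodes antithrombin, the main inhibitor of thrombin in blood. Its level was -7.07, -3.63 and -8.35 on the SHRSP arrays, against 1.93, 2.88 and 1.55 on the SHR arrays. All SHRSP arrays were far below all SHR arrays, although they spread widely and 2 of the 3 were well above background. The difference was -8.47 ± 0.79 (adjusted p = 1.87e-05). Serpinc1 is a liver gene, and replicate 2 of SHR, which held liver transcripts, was the highest array, but without it the difference was -8.09. The other 16 liver markers had no member called. At 6 weeks Serpinc1 was at 3.99, 4.15 and 4.19 in SHRSP, against -5.28, -5.69 and -5.61 in SHR, which is 9.63 ± 0.79 (adjusted p = 3.76e-06).

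Agtrap encodes a protein that binds the angiotensin receptor AT1 and lowers its signal. It was at -4.83, -4.81 and -5.21 in SHRSP, against 0.11, -0.10 and -0.28 in SHR, a 29.1-fold lower signal (-4.86 ± 0.16, adjusted p = 1.64e-10). At 6 weeks it was at 0.62, 0.63 and 0.50 in SHRSP, against -4.41, -4.74 and -5.15 in SHR, or 40.7-fold higher (adjusted p = 4.35e-11). Uts2 encodes urotensin 2, a peptide that constricts vessels. It was at -1.73, -1.04 and -0.69 in SHRSP, against 2.01, 2.70 and 2.88 in SHR (-3.68 ± 0.41, adjusted p = 8.56e-05), and its difference at 6 weeks was 4.08 ± 0.41. Ephx2, the soluble epoxide hydrolase that breaks down vasodilator epoxides of arachidonic acid, was at -5.63, -7.03 and -6.73 in SHRSP, against -3.41, -2.98 and -2.97 in SHR (-3.35 ± 0.30, adjusted p = 1.23e-05). At 6 weeks Ephx2 was at least 12.4-fold higher in SHRSP, since no SHR array was well above background. The order of the strains was turned round at 6 weeks for each of these 3 genes.

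Falls in 2 cytochrome P450 genes were of like size. Cyp2f4 was at -4.24, -4.02 and -3.88 in SHRSP, against -1.82, -1.46 and -1.54 in SHR (-2.44 ± 0.22, adjusted p = 1.52e-05), and at 6 weeks differed by 1.24 ± 0.22. Cyp2a3 differed by -2.55 ± 0.36 at 3 weeks and by 0.34 ± 0.36 at 6 weeks (adjusted p = 0.552). Tnfaip6, a hyaluronan-binding protein of inflammation, was at -4.38, -4.50 and -3.98 in SHRSP, against -1.62, -2.26 and -1.57 in SHR (-2.47 ± 0.33, adjusted p = 0.00042). Iqub differed by -3.10 ± 0.38 and Haghl by -2.87 ± 0.35, the second with 2.97 ± 0.35 at 6 weeks. With all probes of the gene averaged Iqub differed by -2.01.

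Some of the falls rested on dim or uneven arrays. Lilrb3l and Lilrc2, leukocyte receptor genes with many near copies, were at least 5.35-fold and 1.57-fold lower, with no SHRSP array well above background. Ryr1l was at least 3.41-fold lower in the same way. Its fitted log2 difference was -3.79, and -1.81 with all probes of the gene averaged. Akr1d1, a steroid reductase of the liver, was at -9.71, -6.85 and -9.49 in SHRSP, against -6.08, -2.51 and -6.31 in SHR (-3.72 ± 0.85, adjusted p = 0.0146). It was highest on replicate 2, the array with liver transcripts, and without that array the difference was -2.49 and was still called. With background corrected by normexp the differences of dim probes shrank, to -1.91 for Ephx2, -1.58 for Iqub and -1.21 for Akr1d1, the last no longer called. In that setting each of the 8 named genes with a bound at 3 weeks had a fold under its bound. Vegfb was 45.0-fold higher, Irf4 1.38-fold, Or8g36b 1.23-fold and Abca9 1.17-fold, the last not called. Lilrb3l was 1.73-fold lower, Ryr1l 1.65-fold and Lilrc2 1.23-fold.

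The share of genes with opposite signs at the 2 ages was larger among the larger differences. At 6 weeks 3117 genes (14.9%) were called between SHRSP and SHR, and 2483 genes (11.9%) in a direct test of whether the strain difference at 3 weeks differed from that at 6 weeks. Of the 1650 genes called at 3 weeks, 820 were called in that test. By sign alone, 807 of the 1650 (48.9%) were opposite at 6 weeks, against 60.4% of all genes tested. The share was 154 of 278 (55.4%) from 2-fold, 30 of 39 (76.9%) from 4-fold, 11 of 14 (78.6%) from 8-fold, and 5 of 5 from 16-fold. Over all genes the median difference was 0.09 at 3 weeks and -0.11 at 6 weeks. The part of this offset in the 60.4% was not tested. Of all 1650 called genes, 345 were called at 6 weeks with the opposite sign and 387 with the same sign. From 2-fold these counts were 91 and 67. Of the 39 genes from 4-fold, 24 were called at 6 weeks with the opposite sign and 5 with the same sign. The arrays at 6 weeks did not enter the difference at 3 weeks but did enter its estimate of spread, the choice of probe and the filter on dim genes. Genes are not independent replicates either, so the shares carry no test.

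**Figure D2:**
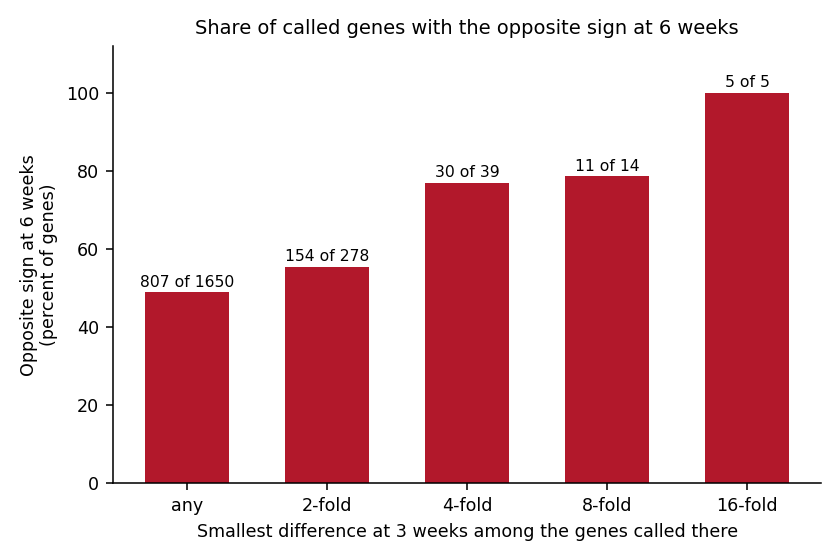
Percent of genes called at 3 weeks whose difference had the opposite sign at 6 weeks, for genes called with any difference and from 2, 4, 8 and 16-fold, with the counts above the bars. The share was 48.9% among all called genes and 76.9% among the 39 from 4-fold.

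**Figure D3:**
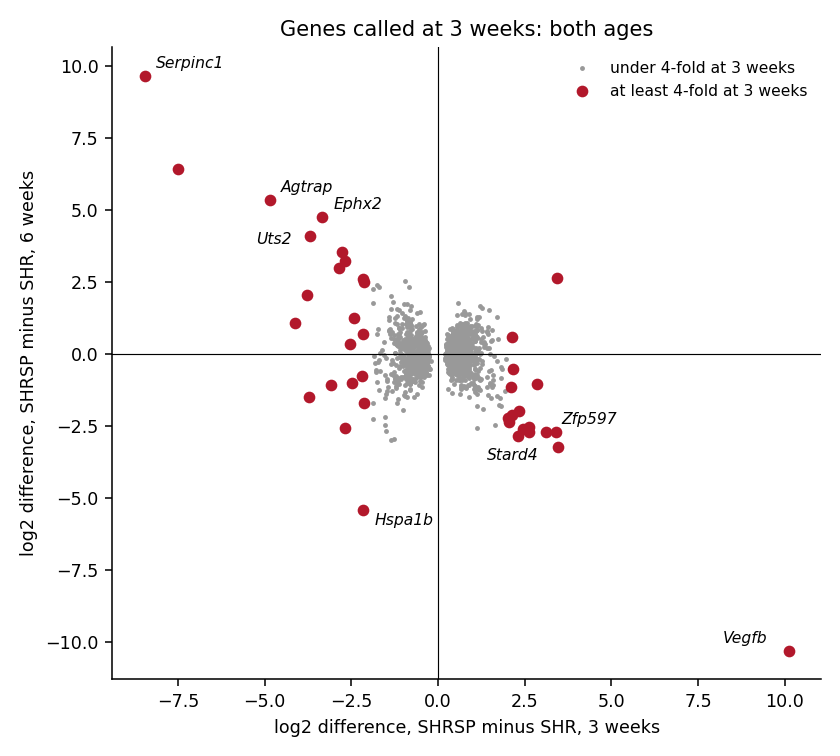
Log2 difference of SHRSP minus SHR at 6 weeks (vertical) against that at 3 weeks (horizontal) for the 1650 genes called at 3 weeks, with the 39 genes from 4-fold as large red points. Most large points lie in the upper left and lower right, where the signs are opposite, and Hspa1b is the lowest large point with the same sign.

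Over the 39 genes the groups at 3 weeks lay nearer to the other strain's label at 6 weeks than to their own. The median absolute log2 difference was 2.30 between SHRSP at 3 and at 6 weeks, and 0.54 between SHRSP at 3 weeks and SHR at 6 weeks. It was 2.39 between SHR at 3 and at 6 weeks, and 0.67 between SHR at 3 weeks and SHRSP at 6 weeks. Over all genes tested the same 4 medians were 0.25, 0.24, 0.29 and 0.25. Over the whole array the distances thus differed far less, though SHR at 3 weeks was still slightly nearer to SHRSP at 6 weeks. In the same order 6039, 5030, 6104 and 5844 genes were called. The correlation over all genes between the strain differences at the 2 ages was -0.193. SHRSP at 3 weeks was nearer to SHR at 6 weeks for 30 of the 39 genes (76.9%), against 51.2% of all genes tested. SHR at 3 weeks was nearer to SHRSP at 6 weeks for 29 of them (74.4%), against 56.4% of all genes. WKY at 3 weeks lay nearer to SHR than to SHRSP for 12 of the 17 genes higher in SHRSP and for 16 of the 22 lower. The same share over all genes tested was not counted, so whether these counts stand out is not known. Which age carries the usual difference of these strains cannot be told apart from these arrays.

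Other differences kept their sign at both ages, among them clock and heat shock genes. Cry1, a repressor of the circadian clock, was at 0.37, 0.40 and 0.36 in SHRSP, against -1.12, -1.21 and -1.22 in SHR (1.56 ± 0.16, adjusted p = 4.74e-05), with 0.82 ± 0.16 at 6 weeks (adjusted p = 0.00318). Npas2, which pairs with Bmal1 to drive clock genes, was at -2.83, -2.80 and -2.92 in SHRSP, against -0.62, -0.79 and -0.57 in SHR (-2.19 ± 0.14, adjusted p = 3.89e-07), with -0.78 ± 0.14 at 6 weeks. The groups were wide apart for both, in opposite directions, although a second and dimmer Npas2 probe gave -0.06 ± 0.21 (adjusted p = 0.893). Hspa1b, the inducible Hsp70 chaperone, was at -0.14, -1.02 and -0.84 in SHRSP, against 1.26, 1.70 and 1.52 in SHR (-2.16 ± 0.50, adjusted p = 0.0161), and at 6 weeks the gap was wider, at -5.41 ± 0.50. Hspa1b has a near-identical copy, Hspa1a, and with all probes of the gene averaged the difference was -0.99 and was not called.

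Of the other genes named for keeping their sign, Ascl2, a basic helix-loop-helix factor, Fgf9, a growth factor, Apbb2, Zfp395 and Tuft1 rose at both ages. Ascl2 differed by 1.48 ± 0.20 at 3 weeks and 1.52 ± 0.20 at 6 weeks, and Fgf9 by 1.45 ± 0.29 and 0.94 ± 0.29. A second, dimmer probe of Zfp395 gave 0.42 at 3 weeks (adjusted p = 0.261) and -0.27 at 6 weeks, unlike its first. Tuft1, with no SHR array well above background, was at least 1.55-fold higher at 3 weeks, but 1.11-fold and not called with normexp. The falls at both ages were in Tubb3, a tubulin of neurons, Ankrd33b, Pak3, a kinase, and Hhex, a homeobox factor. Tubb3 was at -2.20, -1.66 and -0.85 in SHRSP, against 0.03, 0.25 and 1.44 in SHR (-2.14 ± 0.34, adjusted p = 0.00148), and was highest on replicate 3 of SHR, the array with nerve transcripts, without which it was -1.71 and still called. Hhex, with signals above the 75th percentile on each of these arrays, was at 2.41, 1.77 and 2.93 in SHRSP, against 3.99, 3.97 and 3.80 in SHR (-1.54 ± 0.36, adjusted p = 0.0159).

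Of 29 genes of steroid hormone synthesis 3 rose and 1 fell (10.3% higher and 3.45% lower), with a median difference of 0.10 against 0.09 over all genes. Over all genes 4.72% were higher and 3.19% lower, and the share in each list below stands against these. Star, which moves cholesterol into mitochondria, was at 5.99, 5.88 and 6.12 in SHRSP, against 5.58, 5.56 and 5.61 in SHR (0.41 ± 0.08, adjusted p = 0.00759), though a second probe gave 0.10 ± 0.15. Nr0b1, a nuclear receptor that represses steroid genes, fell, at 1.58, 1.34 and 0.85 in SHRSP, against 2.54, 2.40 and 2.36 in SHR (-1.18 ± 0.21, adjusted p = 0.00289). Prkar1a, the regulatory subunit of protein kinase A, rose by 0.55 ± 0.09 (adjusted p = 0.00239) and Hsd3b2 by 0.75 ± 0.18 (adjusted p = 0.0178). Cyp11b2, the aldosterone synthase, was at 4.91, 4.66 and 4.77 in SHRSP, against 4.25, 4.40 and 4.47 in SHR, without overlap but not past the threshold (0.41 ± 0.13, adjusted p = 0.0679). Cyp11b1, which makes corticosterone, differed by 0.20 ± 0.08 (adjusted p = 0.171) and Cyp21a1 by 0.10 ± 0.08 (adjusted p = 0.532). The Cyp11b genes are alike in sequence, so their probes may share signal.

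In the zona glomerulosa list, the outer layer that makes aldosterone, 2 of 22 members rose and 1 fell (9.09% higher and 4.55% lower). Axin2, a target of Wnt signalling there, differed by 0.74 ± 0.12 (adjusted p = 0.0022), and Vsnl1, a calcium sensor, by -0.61 ± 0.16 (adjusted p = 0.0344). The call was lost in 10 of 16 alternative settings for Vsnl1, and in 8 of 16 for Cyp51, described below. Of 33 genes of cholesterol synthesis and uptake 2 rose and 2 fell (6.06% higher and 6.06% lower). The rises were in Stard4, described above, and in Cyp51, the lanosterol demethylase of cholesterol synthesis, which was at 0.56, 0.87 and 1.01 in SHRSP, against -0.01, 0.30 and 0.44 in SHR (0.57 ± 0.16, adjusted p = 0.037), with -0.13 ± 0.16 at 6 weeks (adjusted p = 0.611).

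Of 34 chromaffin genes 1 rose and 1 fell (2.94% higher and 2.94% lower; median 0.06). Pnmt, which turns noradrenaline into adrenaline, was at 3.39, 3.20 and 3.41 in SHRSP, against 2.67, 2.87 and 2.67 in SHR (0.59 ± 0.12, adjusted p = 0.00717). Th was at 0.38 ± 0.13 (adjusted p = 0.09) and Dbh, the enzyme after it, at 0.19 ± 0.17 (adjusted p = 0.58). The 6 medulla markers had a median of 0.33, with 1 higher, 1 lower and 5 of 6 above 0, against 64.2% of all genes tested. They summed to 7.005, 7.056 and 7.178 in SHRSP, against 6.738, 6.766 and 6.712 in SHR, without overlap. In the list on blood pressure and ion transport 3 of 46 rose and 5 fell (6.52% higher and 10.9% lower), and Vegfb, Agtrap and Ephx2 differed most. Atp1b1, a subunit of the sodium pump, fell by 0.53 on the log2 scale (adjusted p = 0.000795) and by 0.59 at 6 weeks (adjusted p = 0.000162). Among ion channels 1 of 46 rose and 2 fell (2.17% higher and 4.35% lower), with Kcnh2, a potassium channel, at -1.25 ± 0.19 and its second probe at -1.06 ± 0.26.

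The interferon response list held 7 of 46 members lower and 0 higher in SHRSP (15.2% lower, against 3.19% of all genes; median -0.40). A further 30 members were below 0 without a call. In this list 19.6% of members were above 0, against 64.2% of all genes tested. Oasl, an antiviral protein of the oligoadenylate synthetase family, was at -5.94, -6.28 and -6.36 in SHRSP, against -4.84, -4.60 and -4.47 in SHR (-1.56 ± 0.21, adjusted p = 0.000421). Eif2ak2, the kinase that stops translation on double-stranded RNA, differed by -1.13 ± 0.13 (adjusted p = 8.56e-05), but its second probe by -0.31 ± 0.21. Oasl2 and Dtx3l differed by -1.15 ± 0.24 and -0.85 ± 0.16. The median was -0.18 on slide 1 and -0.70 on slide 4, the 2 slides that held both strains at 3 weeks, and 4 members fell without replicate 3 of SHRSP or of SHR. Of 35 antigen presentation genes 3 fell and 0 rose (0% higher and 8.57% lower; median 0.00), but with only the 6 arrays in the model 3 rose and 1 fell. The falls were in RT1-DOb (-1.21 ± 0.25, adjusted p = 0.00823), RT1-N1 (-0.62 ± 0.14, adjusted p = 0.0164) and RT1-M3-1 (-0.49 ± 0.08, adjusted p = 0.00143). RT1 genes are a family of near copies, so their probes could share signal. Of 20 macrophage markers 1 rose (Lyz2, 0.55 ± 0.15) and 0 fell, and Lyz2 was not called when any 1 of the 6 arrays was left out. Of 14 lymphocyte markers 1 rose and 0 fell. The part of such cells in the falls above was not tested.

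Of 48 cell cycle genes 7 rose, 0 fell and 41 were not called (14.6% higher, against 4.72% of all genes; median 0.46). The count turned on the processing, with 2 higher under quantile normalization or with only the 6 arrays, 3 under normexp or with no filter on dim probes, and 4 higher and 1 lower with slide as a block. Cdc6, which loads the replication helicase, was at -3.82, -3.62 and -4.07 in SHRSP, against -4.85, -4.83 and -4.81 in SHR (0.99 ± 0.22, adjusted p = 0.0133). Cdt1, its partner, differed by 0.96 ± 0.24, Ccne1, a cyclin of the S phase entry, by 0.58 ± 0.16, and Mcm7, a part of the helicase, by 0.30 ± 0.08. The median was 0.61 on slide 1 and 0.01 on slide 4. Without replicate 2 of SHRSP no member was called (median 0.33), without replicate 1 of SHRSP 2 were, without replicate 1 or 2 of SHR 1 was, and without replicate 3 of SHR 4 were. In bulk tissue fewer cells of a kind and less RNA per cell cannot be told apart.

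Of 20 clock genes 4 rose and 1 fell (20% higher and 5% lower), with 2 to 4 higher when 1 array was left out. The rises were 2 without replicate 2 or 3 of SHRSP or replicate 2 of SHR. Besides Cry1 and Npas2, Per2, another repressor, was at -0.38, -0.74 and -0.80 in SHRSP, against -1.84, -2.07 and -2.25 in SHR (1.42 ± 0.24, adjusted p = 0.00226), and Cry2 differed by 0.49 ± 0.12 (adjusted p = 0.0242). Per2 had 0.19 ± 0.24 at 6 weeks, and its difference between ages was 1.22 ± 0.34 (adjusted p = 0.031). Clock genes change with the hour of collection, which is not stated in the sources used here. Of 37 immediate early genes 3 fell and 1 rose (2.7% higher and 8.11% lower; median -0.35). Atf3, a stress transcription factor, was at -3.84, -3.78 and -3.50 in SHRSP, against -2.31, -1.78 and -1.67 in SHR (-1.79 ± 0.22, adjusted p = 0.000208). Jund and Klf4 fell too (-0.42 ± 0.08 and -0.83 ± 0.24) and Gadd45b rose (0.80 ± 0.19). Of 24 glucocorticoid targets, Errfi1 fell (-1.02 ± 0.17) and Angptl4 rose (1.12 ± 0.29). Of 46 chaperones 1 rose, Hsph1, an Hsp110 chaperone (0.66 ± 0.15), and 3 fell (2.17% higher and 6.52% lower). The falls were in Hspa1b, in Dnajb9 (-0.53 ± 0.15) and in Dnajb1, the Hsp40 partner of Hsp70, at -0.92 ± 0.13 (adjusted p = 0.000507) and -0.81 ± 0.13 at 6 weeks.

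**Figure D4:**
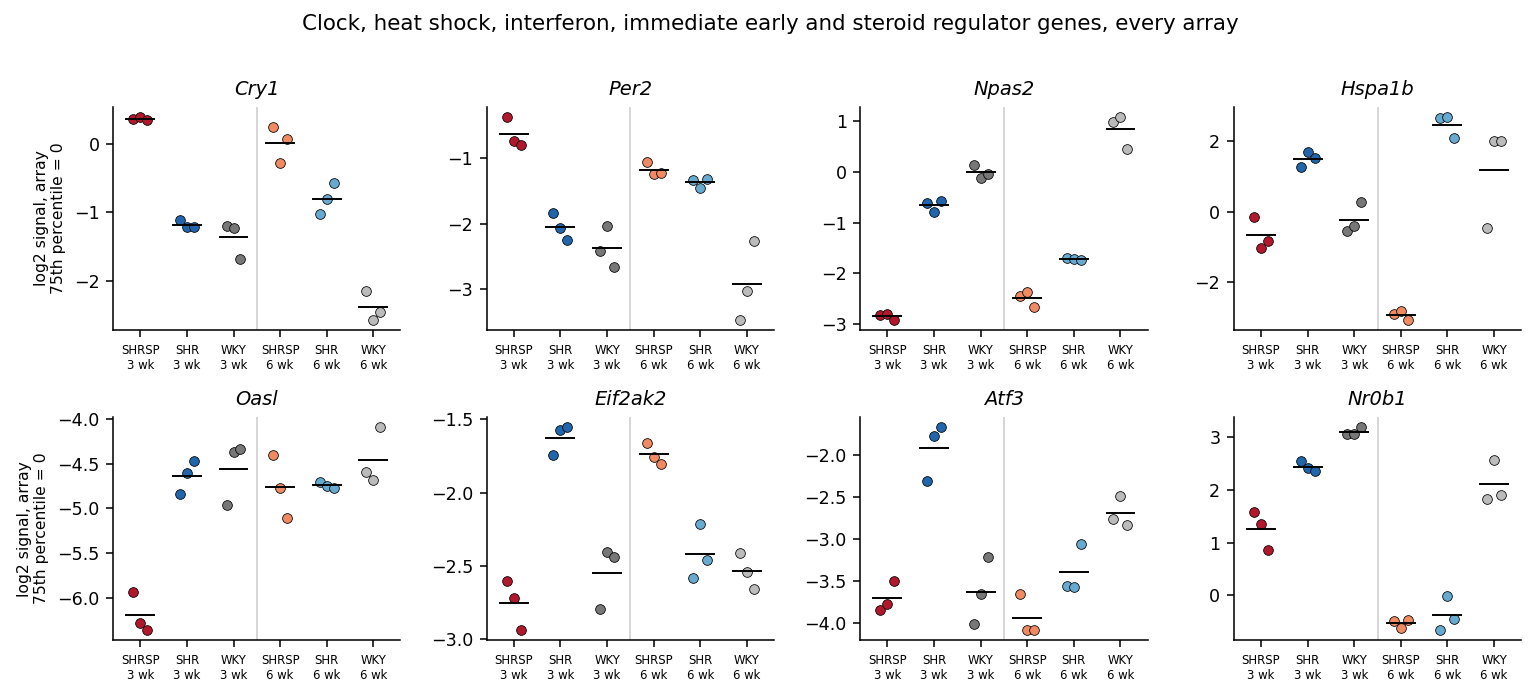
Levels of 8 genes of the clock, heat shock, interferon, immediate early and steroid lists on each of the 18 arrays, as log2 signal with the array's 75th percentile at 0; points are replicates 1 to 3 from left to right and bars are group means. The SHRSP and SHR arrays at 3 weeks do not overlap in any panel, which was a condition for naming the genes. Npas2 and Hspa1b keep the lower level in SHRSP at 6 weeks.

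In the metabolic lists 4 of 50 fatty acid genes rose and 0 fell (8% higher and 0% lower), 1 of 71 respiratory chain genes rose (Ndufb4, 0.45 ± 0.11), and 0 of 45 glutathione genes were called. Ehhadh, an enzyme of peroxisomal oxidation, differed by 1.22 ± 0.26 (adjusted p = 0.00896), Fads2, a fatty acid desaturase, by 0.58 ± 0.11, Hadh, an enzyme of mitochondrial oxidation, by 0.28 ± 0.06, and Mlycd, which removes malonyl-CoA, by 0.41 ± 0.06. Gstm1, a glutathione transferase, stood at 0.80, 0.72 and 0.66 in SHRSP, against 0.72, 0.78 and 0.54 in SHR, with overlap (0.05 ± 0.12, adjusted p = 0.846). Cd36, a fatty acid carrier, overlapped too (0.13 ± 0.15, adjusted p = 0.675). Of 35 growth factors and imprinted genes 3 rose and 2 fell (8.57% higher and 5.71% lower). Vegfc, a lymphatic growth factor, was -0.68 at 3 weeks and -0.67 at 6 weeks, both called. Igfbp2, a binding protein of insulin-like growth factors, was 0.54 ± 0.10 (adjusted p = 0.00396), with 0.51 ± 0.13 from its second probe. Of 47 collagens and matrix genes 4 fell and 0 rose (0% higher and 8.51% lower), and 1 fell with only the 6 arrays in the model. The falls were in the proteases Mmp3 (-0.82 ± 0.23, adjusted p = 0.0438) and Mmp14 (-0.55 ± 0.11), in Col5a1 (-0.65 ± 0.11, adjusted p = 0.00251) and in Lamc1, a laminin chain (-0.35 ± 0.08).

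**Figure D5:**
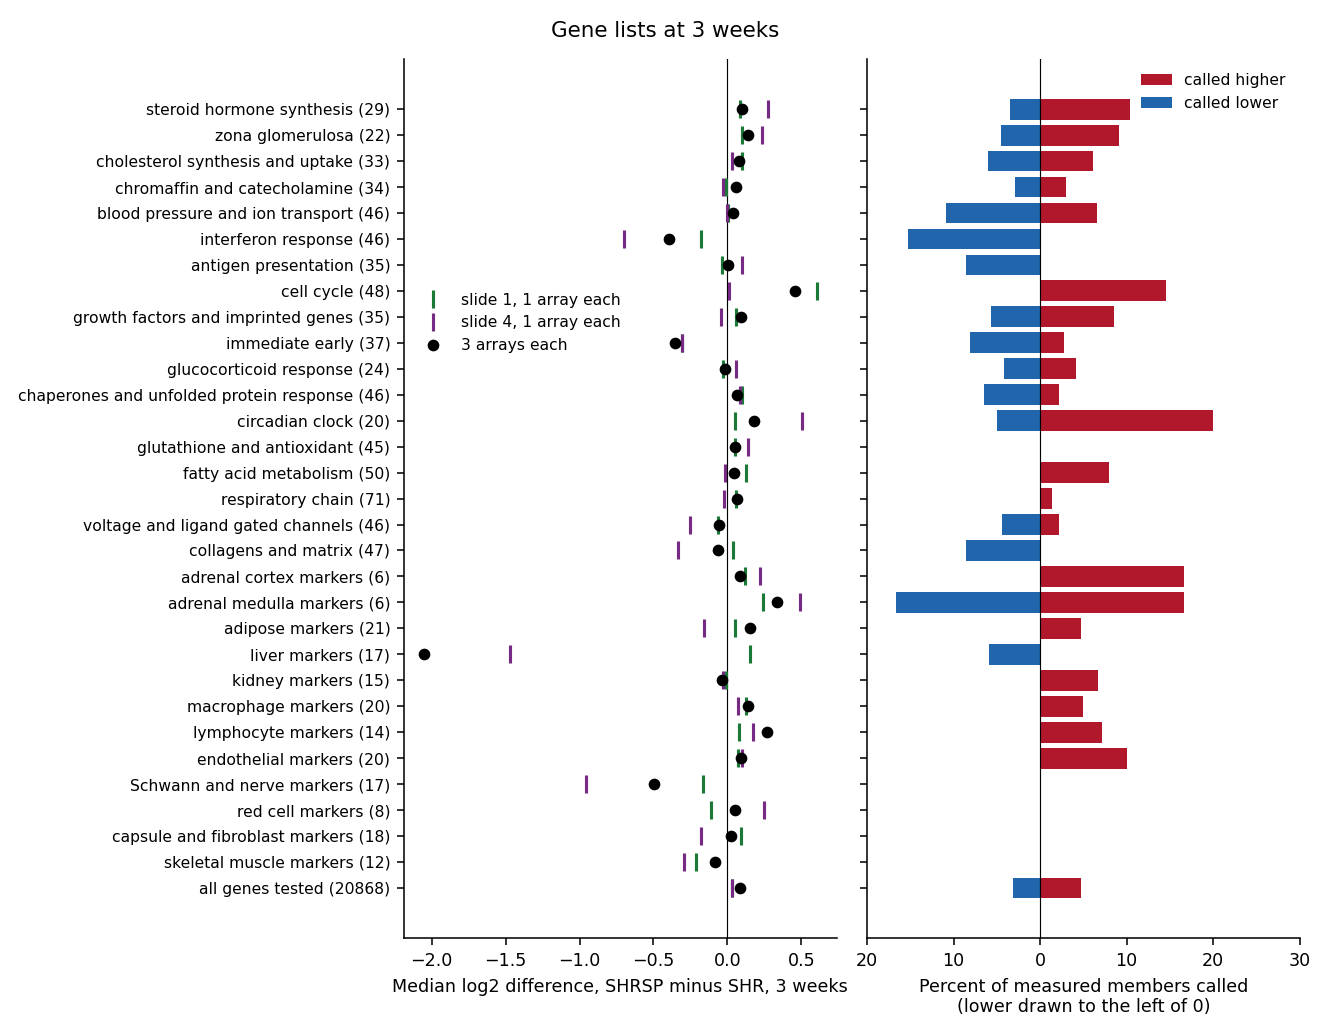
Left, median log2 difference of SHRSP minus SHR at 3 weeks for each gene list (measured members in brackets), over 3 arrays a strain (points) and on slides 1 and 4 with 1 array a strain (ticks); right, percent of measured members called higher and lower. In this model the interferon and cell cycle lists hold calls in 1 direction, as do several other lists. The liver median of -2.05 is paired with a slide 1 value of 0.15.

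Markers of liver and of nerve moved with single arrays. The liver list had 1 of 17 members called, Serpinc1, and a median of -2.05, which was -0.37 without replicate 2 of SHR. Of its markers, 14 were well above background on each SHRSP array and 16 on each SHR array. The Schwann cell and nerve list had a median of -0.50 with 0 of 17 called, and -0.20 without replicate 3 of SHR. Without replicate 1 of SHR 6 of them fell. Of 20 endothelial markers 2 rose, Tek and Lyve1, by 0.37 ± 0.10 and 0.32 ± 0.09 (10% higher and 0% lower), but 0 were called under quantile normalization, under normexp, with no filter on dim probes or with only the 6 arrays. Of 21 adipose markers 1 rose (Lpin1, 0.81 ± 0.22) and of 15 kidney markers 1 (Slc22a6, 0.38 ± 0.08), while 0 of 8 red cell, 0 of 18 capsule and fibroblast and 0 of 12 muscle markers were called. The part of other tissues in the differences above was not tested, beyond the values without these arrays.

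Called genes lay on all 21 chromosomes of the probe annotation. The share of tested genes that were called ran from 6.12% on chromosome 14 to 11.5% on chromosome 18. Other probes of a gene were counted only where they passed the filter on dim signals. Of the 88 called genes named here 13 had another tested probe, and 13 of these 14 probes had the same sign while 5 were called the same way. The exception in sign was a dim probe of Kcnk2, a potassium channel whose own rise of 0.30 (adjusted p = 0.0482) was lost in 14 of 16 alternative settings.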

How the data were processed

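RNA from whole adrenal glands was primed with oligo-dT and labelled with Cy3 (200 ng a sample), per the labels' protocols, so signals reflect polyadenylated transcripts. Each sample lay on 1 array of 44254 spots, 42877 of them not controls. The files deposited hold processed spot intensity, made with Agilent Feature Extraction 10.5.1.1, per the file headers and the submitters' processing notes; it was not normalized between arrays. The authors' series table has identical intensity values, with a largest difference of 0.

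Outlier spots were left out, and log2 signal minus the array's 75th percentile was taken. A gene was its probe with the highest mean, and a gene was kept if 1 group or more had it well above background in all 3 arrays, which left 20868 (12998 with a symbol, 7870 with an identifier only). Names came from the files, updated through RefSeq for 17328 of 30367 probes. One limma 3.58.1 model (R 4.3.3, lmFit and eBayes) held 6 group means, with 12 residual degrees of freedom. Where no array of a group was well above background, the fold is a bound that holds for this processing only. The test was checked on simulated data.

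The arrays lay on 5 slides. At 3 weeks, slide 1 held replicate 1 and slide 4 replicate 3 of both strains, slide 2 held replicate 2 of SHR and slide 3 replicate 2 of SHRSP. The fit with slide as a block and the values within slides 1 and 4 are therefore given. Per array, 77.8% to 84.8% of spots were well above background and none was saturated. The lowest correlation across genes between arrays of a group at 3 weeks was 0.9898. Replicates are those of the labels, so p-values measure the spread between these samples.

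Genes were named by a rule. Among called genes with a symbol and no overlap between the arrays it takes the 15 largest rises and falls, the 6 largest each way called with the same sign at 6 weeks, the 6 largest each way of the difference between ages, and up to 4 members of each of 30 gene lists with the smallest adjusted p. Added were Vegfb, Agtrap, Serpinc1, Ephx2, Cd36, Gstm1, Pnmt, Th, Dbh, Star, Cyp11b1, Cyp11b2 and Cyp21a1. Of the genes the rule took, 6 are not reported here. The groups, lists and rule were chosen with earlier results of these data known. Lists are described by counts and medians, with no test. Alternatives were quantile normalization, normexp with an offset of 50 and quantile, array medians, other filters on dim probes, the mean of all probes, fewer arrays, slide or replicate as a block, the series table, and leaving out each array.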

Additional observations from a re-analysis of the deposited data

Results flagged for a closer look

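The strain difference at 3 weeks was tested against the strain difference at 6 weeks in the same limma model, and 2483 genes differed between the ages at an adjusted p under 0.05. Of the genes named in the report, 53 were among them. The value in brackets after each gene is the log2 difference of SHRSP minus SHR at 3 weeks minus the same at 6 weeks.

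For 26 of these genes the difference was called at both ages with opposite signs. Those higher in SHRSP at 3 weeks and lower at 6 weeks were Zfp597 (5.82), Nfe2l3 (5.33), Stard4 (5.17), Serhl2 (5.16), Lpar3 (5.04), Zfp296 (4.33), Haus4 (3.21), Hsph1 (1.52), Axin2 (1.23), Ndufb4 (0.99), Prkar1a (0.97), Slc22a6 (0.7) and Hadh (0.57). Those lower in SHRSP at 3 weeks and higher at 6 weeks were Lamc1 (-0.73), Eif2ak2 (-1.81), Cyp2f4 (-3.68), Haghl (-5.83), Uts2 (-7.76), Agtrap (-10.21) and Serpinc1 (-18.1). A further 6 are Vegfb, Abca9, Ryr1l, Ephx2, Lilrb3l and Lilrc2, given apart below.

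Of the 53 genes, 43 had opposite signs at the 2 ages, the ones above included. In the rest of these 43 at least 1 age was not called, so their opposite sign is no called reversal. They were Agt (2.69), Eva1a (2.12), Ehhadh (1.23), Lpin1 (1.18), Lyz2 (0.97), Fads2 (0.88), Igfbp2 (0.78), Cyp11b2 (0.65), Star (0.64), Lyve1 (0.57), Tek (0.49), Mmp14 (-0.66), Kcnh2 (-1.26), Oasl2 (-1.44) and Cyp2a3 (-2.89), with Irf4 and Or8g36b given below. In 10 genes the sign was the same and the size differed, namely Hspa1b (3.25), Per2 (1.22), Errfi1 (-0.82), Nr0b1 (-1.02), Pak3 (-1.17), Atf3 (-1.24), Npas2 (-1.42), Oasl (-1.53) and Iqub (-2.01), with Dnase1 given below. Hspa1b was lower in SHRSP at both ages, with the larger gap at 6 weeks, so its value is above 0.

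In 9 of the 53 genes no array of at least 1 group was well above background. Their values are fitted from dim signals and are no measure of size, and the fold at an age with such a group has only a bound. They were Vegfb (20.41), Abca9 (4.25), Irf4 (3.89), Or8g36b (3.26), Dnase1 (1.54), Lilrc2 (-4.78), Ryr1l (-5.85), Lilrb3l (-5.88) and Ephx2 (-8.1). For Ryr1l and Dnase1 at 6 weeks the bound was under 1-fold, so no rise of any size is given there, and for Irf4 no array of either strain was well above background at 6 weeks.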

How the results depend on the processing

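Leaving out 1 array of either strain at 3 weeks gave 891 to 1368 called genes, 497 to 812 higher and 387 to 556 lower, and 1675 to 2331 in the difference between ages. The model of only the 6 arrays called 1010 (618 higher, 392 lower), with fewer residual degrees of freedom. Background correction by normexp left 150 genes called from 2-fold. With slide as a block 4190 genes were called in the difference between ages and 2268 at 3 weeks. The share of genes from 4-fold with the opposite sign at 6 weeks ran from 67.5% to 82.5% when 1 array was left out.

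Labels give both strains the same replicate numbers. Residuals of same-numbered arrays correlated at 0.30, 0.05 and 0.15. Replicates 1 and 3 of SHRSP each correlated best with the same-numbered SHR array. Those pairs lay on slides 1 and 4, so number and slide cannot be told apart there. Replicate 2 of SHRSP had 0.047 with replicate 3 of SHR and 0.046 with replicate 2, which cannot decide. The labels state no pairing, and the numbers were not taken to pair the samples. A replicate block on the 6 arrays called 18 genes, 11 higher and 7 lower, all 18 from 2-fold, and 17 of them were also called without it.

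Of the 88 named genes called, 12 kept their call in each alternative that measured them and 0 changed sign. They were Agtrap, Cry1, Cyp2f4, Eva1a, Haus4, Npas2, Serhl2, Stard4, Uts2, Zfp296 and Zfp597, with 16 alternatives each, and Vegfb with 15, since the filter for signal on all arrays removed it. Dnajb9, Lyve1 and Mmp3 lost it in 12. Tek lost it in 11, Lyz2 and Vsnl1 in 10, and Ccne1, Klf4 and Mcm7 in 9. Cyp51, Ndufb4, Or8g36b and Tuft1 lost it in 8, and Angptl4, Cdt1 and Lpin1 in 7. The interferon median stayed between -0.44 and -0.33 and the cell cycle median between 0.34 and 0.47 under the 4 scalings, where 5 to 9 interferon members fell and 2 to 7 cell cycle members rose. List medians moved by less than the spread between arrays in 445 of 480 cases. These cases include the series table, the replicate block, no filter on dim probes and the fit of only the compared arrays. Those settings, also among the alternatives for named genes, left every list median and every named difference unchanged. They therefore test neither the medians nor the signs. Genes not well above background have only a bound.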
